A study of Rattus norvegicus with 24 samples.

Results

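Endothelial and VEGF pathway genes of the rat hippocampus were examined through the array probes annotated to Vegfa, Flt1, Kdr, Tek, Pecam1, Cldn5 or Vwf. Of these 7 genes, 5 had a named probe, out of 12978 genes with a named probe in the series, and each of the 5 had 1 probe. No probe carried the name Kdr or Pecam1, and both genes were not analysed here. Vegfa, Tek, Cldn5 and Vwf passed the filter on dim probes, among 7983 genes tested, and Flt1 did not. A probe was counted as detected on an array when its deposited detection p-value was under 0.05, and it was tested when it was detected on at least 4 of the 24 arrays.

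The series compared hippocampal RNA of dwarf rats deficient in growth hormone (GH; genotype dw/dw, strain HsdOla:DWARF-dw-4) with that of heterozygous rats (HZ, strain HsdOla:DWARF-dw-4 HZ). There were 6 groups of 4 rats with 1 array per rat. The dw/dw rats were given 300 µg GH or saline under the skin from postnatal day 35, for 7 days (tissue taken at 42 days of age) or for 30 days (65 days of age), and the HZ rats were given saline over the same periods. All 6 groups carry the dwarf allele, the controls in one copy, and no group was free of it. GH drives the production of insulin-like growth factor 1 by the liver, and the series asked how this circulating axis bears on gene expression in the adolescent hippocampus.

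VEGF-A, the product of Vegfa, is secreted by astrocytes and neurons among other brain cells, and it directs the growth and permeability of blood vessels through receptors on endothelial cells. Kdr is the main signalling receptor, Flt1 binds the same ligand tightly with little signalling of its own, and Tek is the endothelial receptor for the angiopoietins, which steady mature vessels. Claudin-5 (Cldn5) seals the tight junctions of the blood-brain barrier, PECAM-1 (Pecam1) joins neighbouring endothelial cells, and von Willebrand factor (Vwf) is stored in endothelial cells and captures platelets.

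Values are log2 signals after background correction and quantile normalization, differences are log2 differences between group means with their SE from a limma fit over all 24 arrays, and p-values were adjusted by the Benjamini-Hochberg method over 11487 tested probes with a threshold of 0.05. The lowest normalized log2 signal was 5.97, and the offset of 16 used in the background correction draws the differences of dim probes towards 0. Between 44.9% and 51.2% of probes were detected on an array. The 7-day arrays lay on one slide and the 30-day arrays on another, so age and slide cannot be told apart, and each group held the same positions on both slides, so group and position cannot be told apart either. The tissue was checked against 10 markers of hippocampal neurons with a named probe. Of these, 9 were detected on all 24 arrays and Grik4, a kainate receptor subunit of the CA3 field, was detected on 3. Of the 35 endothelial markers with a named probe, 9 were detected on 0 arrays, namely Flt1, Cdh5, Robo4, Sox7, Cd34, S1pr1, Pglyrp1, Cgnl1 and Vwa1, so the vessel lining was read through only some of its defining genes. In whole tissue, fewer endothelial cells and less RNA per endothelial cell cannot be told apart.

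Vegfa, the ligand, was detected on all 24 arrays and lay within a narrow range in every group. After 7 days its log2 signals were 6.29, 6.19, 6.23 and 6.20 in HZ saline, 6.22, 6.25, 6.28 and 6.20 in dw/dw saline, and 6.26, 6.24, 6.27 and 6.24 in dw/dw GH. After 30 days they were 6.19, 6.23, 6.21 and 6.20 in HZ saline, 6.20, 6.24, 6.19 and 6.25 in dw/dw saline, and 6.19, 6.21, 6.19 and 6.21 in dw/dw GH. The 3 groups overlapped at each time point. Group means ran from 6.20 to 6.25, a span of 0.053, against a pooled SD within groups of 0.028. The dw/dw saline group differed from HZ saline by 0.0072 (SE 0.020, 95% interval -0.035 to 0.050) at 7 days and by 0.017 (SE 0.020, 95% interval -0.026 to 0.059) at 30 days. GH minus saline in the dwarfs was 0.019 (SE 0.020) at 7 days and -0.020 (SE 0.020) at 30 days. None of these passed the test, and averaged over both durations the deficiency difference was 1.01-fold with a 95% interval of 0.987 to 1.03. The raw signals of Vegfa lay between 57.6 and 87.0, on arrays whose median probe read 46 to 56.7. On this dim signal the offset compresses the folds, so the narrow range and interval do not bound the change in its RNA.

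Flt1, the receptor that holds VEGF-A with little signalling, was detected on 0 of 24 arrays. Its raw signals lay between 38.4 and 52.0, on arrays whose median probe read 46 to 56.7, and its normalized group means lay between 6.05 and 6.06. No fold is given for it, because every group was below detection.

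Tek, the angiopoietin receptor, lay at the edge of detection, on 3 of the 12 arrays of the 7-day slide and on 10 of the 12 of the 30-day slide. At 7 days it was detected on 1 array of each group, and at 30 days on 4 arrays of HZ saline, 2 of dw/dw saline and 4 of dw/dw GH. Its log2 signals after 7 days were 6.10, 6.06, 6.11 and 6.09 in HZ saline, 6.10, 6.06, 6.10 and 6.10 in dw/dw saline, and 6.10, 6.13, 6.08 and 6.09 in dw/dw GH. After 30 days they were 6.14, 6.11, 6.11 and 6.11 in HZ saline, 6.10, 6.10, 6.10 and 6.12 in dw/dw saline, and 6.14, 6.13, 6.11 and 6.12 in dw/dw GH. The groups overlapped at each time point, with the dw/dw saline group lowest by its mean and the dw/dw GH group highest at both. GH minus saline was 0.014 (SE 0.014) at 7 days and 0.021 (SE 0.014) at 30 days, with an adjusted p of 1.0 for each. Taken over both durations it was 0.017 (SE 0.0096, unadjusted p = 0.086, adjusted p = 1.0).

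**Figure D1:**
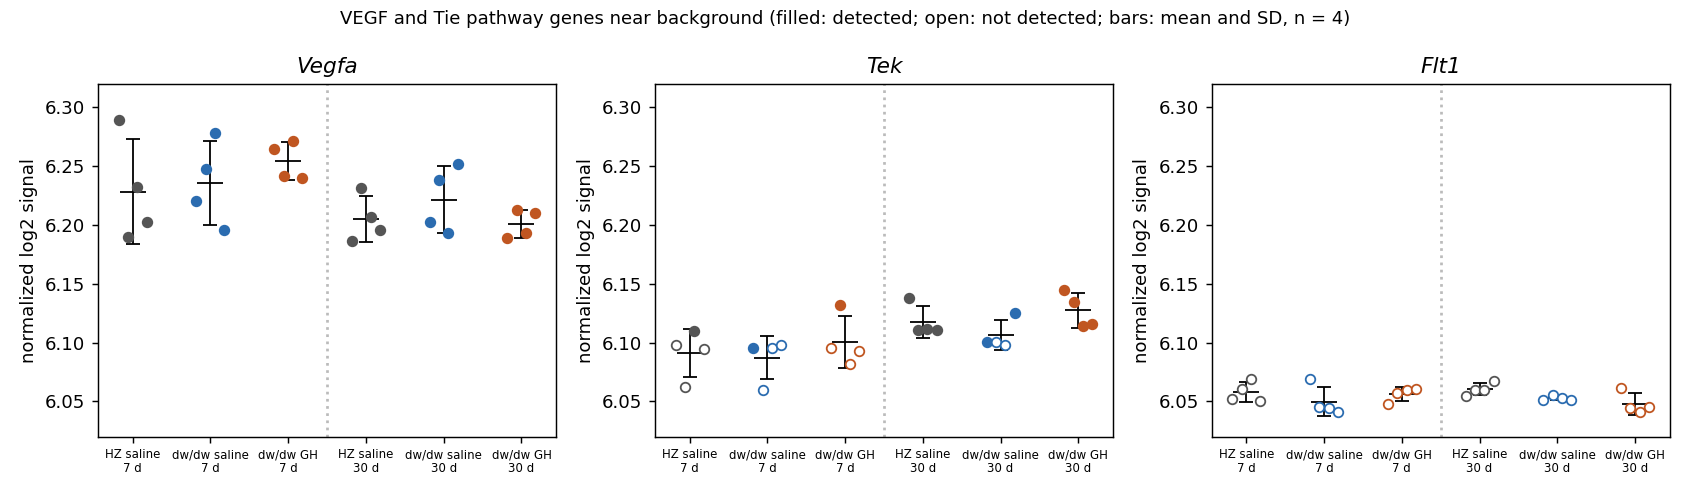
Normalized log2 signal (y axis) of Vegfa, Tek and Flt1 on each array, by group (x axis, n = 4). Filled points were detected and open points were not, and bars give the mean and SD. Vegfa is filled on all 24 arrays, Tek on 13 and Flt1 on 0, and all values sit between 6.04 and 6.29.

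Cldn5, the tight junction gene, was the brightest measured member in raw signal, which ran from 676 to 1296, and it was detected on every array. At 7 days its log2 signals were 10.05, 9.73, 9.71 and 9.99 in HZ saline, 9.90, 9.59, 9.93 and 9.72 in dw/dw saline, and 10.08, 9.85, 9.89 and 9.80 in dw/dw GH. At 30 days they were 9.84, 9.89, 9.52 and 9.69 in HZ saline, 9.61, 9.84, 9.81 and 9.63 in dw/dw saline, and 9.73, 9.76, 9.61 and 9.93 in dw/dw GH. The groups overlapped throughout, and rats of one group differed by more than the groups did. The group means spanned 0.19, from 9.72 in dw/dw saline at 30 days to 9.91 in dw/dw GH at 7 days, while the arrays spanned 0.57 and the pooled SD within groups was 0.15. At 7 days dw/dw saline was 0.94-fold of HZ saline (95% interval 0.813 to 1.09) and dw/dw GH was 1.09-fold of dw/dw saline (95% interval 0.944 to 1.26). At 30 days the same folds were 0.991 (95% interval 0.858 to 1.15) and 1.03 (95% interval 0.888 to 1.19). The 7-day deficiency difference of Cldn5, -0.090 on the log2 scale, turned to 0.0025 with median scaling and lay between -0.14 and -0.025 when single arrays were left out, and the 7-day GH difference of 0.13 lay between 0.062 and 0.17. None of the 4 differences passed the test, and changes within these bounds could not be told from 0.

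Vwf, the stored platelet-binding factor, was detected on all 24 arrays. At 7 days its log2 signals were 7.38, 6.85, 7.03 and 7.20 in HZ saline, 6.94, 6.72, 7.07 and 6.98 in dw/dw saline, and 7.17, 7.00, 7.16 and 7.07 in dw/dw GH. At 30 days they were 6.91, 6.99, 6.77 and 6.84 in HZ saline, 7.05, 6.96, 7.06 and 6.77 in dw/dw saline, and 6.87, 6.94, 6.69 and 7.16 in dw/dw GH. The highest array of all was an HZ saline rat at 7 days and the lowest a GH-treated dwarf at 30 days, and the groups of each time point overlapped. The 7-day difference of dw/dw saline from HZ saline was -0.19 (SE 0.11, adjusted p = 0.81) and that of GH from saline in the dwarfs was 0.17 (SE 0.11, adjusted p = 1.0). Both comparisons share the dw/dw saline arrays. Leaving out single arrays moved the first between -0.28 (without HZ saline replicate 2) and -0.10 (without HZ saline replicate 1) and the second between 0.11 and 0.22, and median scaling gave -0.12 and 0.21. At 30 days the values were 0.080 (SE 0.11) for deficiency and -0.041 (SE 0.11) for GH. The change of the deficiency difference from 7 to 30 days, tested as an interaction, was 0.27 (SE 0.15, 95% interval -0.041 to 0.58, unadjusted p = 0.085, adjusted p = 1.0), and that of the GH difference was -0.21 (SE 0.15, adjusted p = 0.98).

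**Figure D2:**
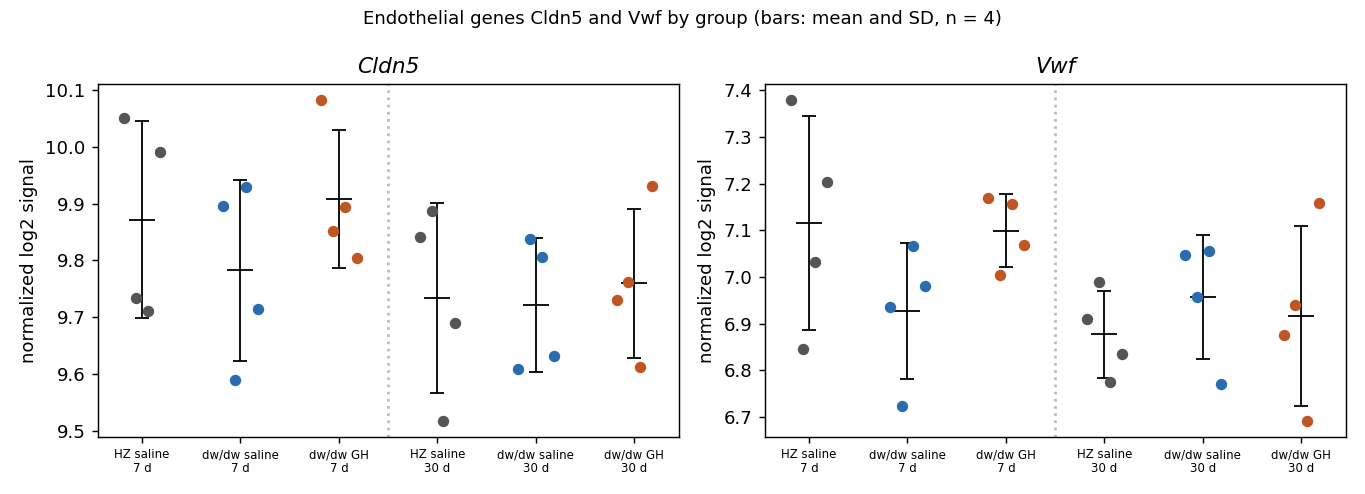
Normalized log2 signal (y axis, different ranges in the panels) of Cldn5 and Vwf on each array, by group (x axis, n = 4), with the mean and SD as bars. The groups overlap at both time points, and single groups are wide, HZ saline at 7 days running from 9.71 to 10.05 for Cldn5 and from 6.85 to 7.38 for Vwf.

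In the 6 comparisons within a time point, 0 of the 4 tested members passed the threshold, and so did 0% of the 11487 probes in each. At an unadjusted p under 0.05 there were 0 members. The number of probes at that level was 758 for dw/dw saline minus HZ saline, 534 for dw/dw GH minus dw/dw saline and 466 for dw/dw GH minus HZ saline at 7 days, and 820, 386 and 630 in the same order at 30 days, where 574 would fall under 0.05 by chance alone. Averaged over both durations, 0% of probes passed for deficiency (1123 at an unadjusted p under 0.05) and 0% for GH (335), and for the interactions 0% passed as well (459 and 592). The members' count was thus that of all probes, and the test found no difference with GH deficiency or GH treatment for any of the 4 genes.

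**Figure D3:**
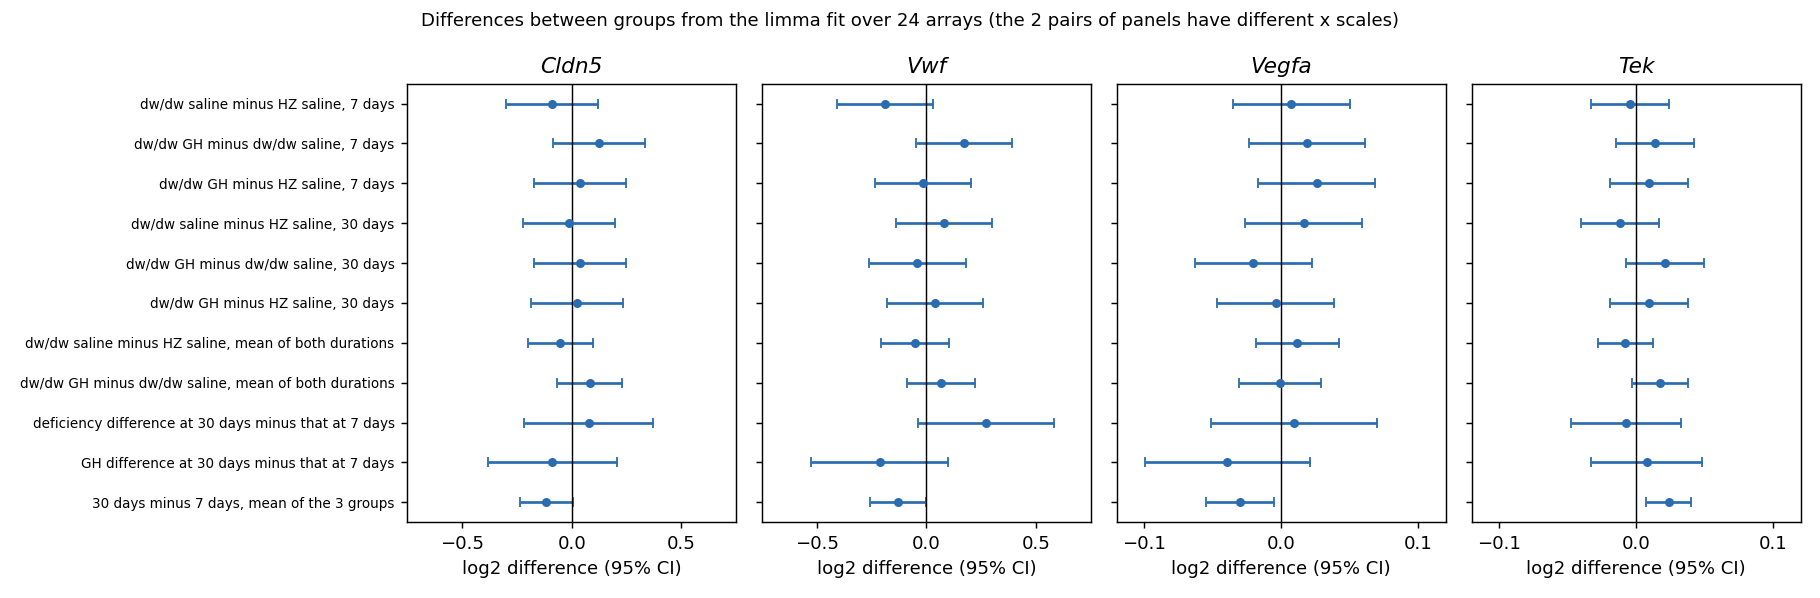
Log2 differences between groups (x axis, wider range for Cldn5 and Vwf than for Vegfa and Tek) with 95% confidence intervals for the 11 comparisons (y axis). Apart from the comparison of 30 with 7 days, every interval contains 0. In that comparison the intervals of Vwf, Vegfa and Tek leave out 0 and Tek alone passed the adjusted threshold.

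Between the 7-day and 30-day arrays, where age and slide change together, 15.7% of probes passed the test (1808 of 11487, with 3445 at an unadjusted p under 0.05), 7.83% as higher and 7.9% as lower at 30 days, so that 49.8% of the calls were higher. Of the members, 1 of 4 passed, as higher. Tek was higher at 30 days by 0.024 (SE 0.0079, 95% interval 0.0075 to 0.040, adjusted p = 0.044), a shift of 1.02-fold on the compressed scale of a gene at the edge of detection. A test needed detection on 4 arrays, and Tek was detected on 3 at 7 days and 10 at 30 days. It thus passed the filter only through the 30-day arrays, where it was higher, so filter and call rest on the same arrays. The call was kept in the fit with no filter on dim probes (adjusted p = 0.039). It was also kept with an offset of 50 (adjusted p = 0.045). The other 3 members had negative differences that did not pass, at -0.030 for Vegfa (SE 0.012, adjusted p = 0.087), -0.13 for Vwf (SE 0.061, adjusted p = 0.15) and -0.12 for Cldn5 (SE 0.058, adjusted p = 0.18). The Tek call was lost with the replicate number as a block (adjusted p = 0.081), with median scaling in place of quantile normalization (adjusted p = 0.095) and in the fits without any one of 16 of the 24 arrays, where the difference stayed between 0.021 and 0.028. The authors' processed values share 1 maximum on the 12 arrays of each slide, 14653 on the 7-day and 12626 on the 30-day slide, their method is not stated, and they may not be comparable between slides. In them, 4.9% of 5224 calls were higher at 30 days, and the differences were -0.34 for Vegfa (adjusted p = 0.0020), -0.24 for Cldn5 (adjusted p = 0.0024), -0.29 for Vwf (adjusted p = 0.011) and 0.42 for Tek (adjusted p = 0.069), against a median of all probes of -0.135.

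Markers of other tissue moved over the same comparison. The haemoglobin genes of red blood cells were lower at 30 days, with log2 differences of -1.22 (SE 0.11) for Hba-a1, -1.28 (SE 0.11) for Hbb and -1.41 (SE 0.11) for Hbb-b1. The other tested red blood cell marker, Slc4a1, did not pass (-0.013, SE 0.0068, adjusted p = 0.22). Among 12 markers of meninges and fibroblasts 0 were higher and 5 passed as lower, with a median of -0.14. That is 41.7% of the list, where 7.9% of all probes passed as lower. Calls were also found among microglia (2 of 9, lower), hippocampal neurons (2 of 9, higher) and astrocytes (1 of 6, lower). These are 22.2%, 22.2% and 16.7% of their lists, against 15.7% of all probes in either direction. The mean log2 signal of the 12 meningeal markers ranged from 7.64 to 8.39 in HZ saline, 7.67 to 7.84 in dw/dw saline and 7.70 to 8.18 in dw/dw GH at 7 days, and from 7.46 to 7.61, 7.44 to 7.91 and 7.56 to 8.07 in the same groups at 30 days. The mean of the 4 red blood cell markers ranged from 10.3 to 11.1 over the 7-day arrays and from 9.22 to 10.02 over the 30-day arrays. For Vwf, which platelets also carry, the platelet marker Pf4 was detected on all 24 arrays and Ppbp, Gp9 and Treml1 on 0. The part of meningeal tissue or blood in the differences of Vwf and Cldn5 was not tested.

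The wider pathway was read from lists of VEGF and vessel genes, chosen with earlier results of these data known, and 0 of their genes passed the test in any comparison within a time point. Of the 11 VEGF ligands and receptors listed, 7 had a named probe and 5 were tested. Nrp1, the neuropilin that serves as a co-receptor for VEGF-A, was 0.16 (SE 0.072) in GH-treated dwarfs minus HZ saline at 7 days and -0.10 (SE 0.072) at 30 days, and Vegfd, a ligand of lymphatic vessels, was -0.030 (SE 0.013) in GH minus saline at 30 days, each with an adjusted p of at least 0.91. Vegfc, another lymphatic ligand, was 0.030 (SE 0.023) in GH minus saline at 7 days.

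Downstream of the receptors, 22 signal transduction genes were tested. At 7 days 16 of 22 had a positive difference in dw/dw saline minus HZ saline (median 0.034), where 52.4% of all tested probes did, and 10 of 22 had one in GH minus saline (median -0.016). Between 7 and 30 days 7 of 22, or 31.8%, passed against 15.7% of probes. The kinase genes Map2k1 (0.11, SE 0.030), Prkcb (0.10, SE 0.030) and Ptk2 (0.080, SE 0.027) were higher at 30 days, and Map2k2 (-0.15, SE 0.033), Plcg1 (-0.10, SE 0.030), Cdc42 (-0.084, SE 0.025) and Prkca (-0.043, SE 0.012) were lower. Cdc42, a small GTPase of the cytoskeleton, was 0.095 (SE 0.043, adjusted p = 0.72) in dw/dw saline minus HZ saline at 7 days. Prkcb, a protein kinase C, was 0.15 (SE 0.052, adjusted p = 1.0) in GH-treated dwarfs minus HZ saline at 7 days. At 30 days Ppp3r1, the regulatory subunit of calcineurin, was 0.17 (SE 0.081, adjusted p = 0.69) in dw/dw saline minus HZ saline, and the kinase gene Src was 0.067 (SE 0.031, adjusted p = 1.0) in GH minus saline. In the angiopoietin and Tie list 3 genes were tested, and Tie1, the partner receptor of Tek, was 0.034 (SE 0.017, adjusted p = 1.0) in GH minus saline at 7 days. From the 7-day to the 30-day arrays Tie1 and Tek both passed in opposite directions, Tie1 at -0.036 (SE 0.0098, adjusted p = 0.018).

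Of 25 tested endothelial markers, Cldn5, Vwf and Tek among them, 6 had a positive difference in dw/dw saline minus HZ saline at 7 days (median -0.028) and 19 in GH minus saline (median 0.027), 2 comparisons that share the dw/dw saline arrays. At 30 days these counts were 8 of 25 (median -0.014) and 16 of 25 (median 0.011). The medians over all probes lay between -0.00051 and 0.0021 in these 4 comparisons. The mean log2 signal of the 25 markers ranged from 7.04 to 7.15 in HZ saline, 7.00 to 7.08 in dw/dw saline and 7.09 to 7.11 in dw/dw GH at 7 days, and from 7.03 to 7.09, 7.03 to 7.06 and 7.01 to 7.09 at 30 days. At 7 days the lowest dw/dw GH array (7.090) thus lay just above the highest dw/dw saline array (7.083), while HZ saline overlapped both. At 30 days all 3 groups overlapped. These means were not tested, and the share of all probes that part the 2 groups in this way was not counted. The 12 meningeal markers had 0 positive differences for deficiency (median -0.17) and 12 for GH (median 0.11) at 7 days, and 11 and 11 of 12 at 30 days (medians 0.056 and 0.090), with 0 passing. Of 4 red blood cell markers, 0 were positive for deficiency (median -0.29) and 3 for GH (median 0.62) at 7 days, and 1 and 4 at 30 days (medians -0.079 and 0.50). None passed, and 3 had an unadjusted p under 0.05 for GH at each time point. The mean log2 signal of these 4 markers, which was not tested, ranged from 10.35 to 10.97 in HZ saline, 10.31 to 10.49 in dw/dw saline and 10.67 to 11.06 in dw/dw GH at 7 days. Here too every dw/dw GH array lay above every dw/dw saline array. At 30 days the ranges were 9.48 to 9.74, 9.22 to 9.99 and 9.79 to 10.02. The platelet marker Pf4 differed by -0.042 (SE 0.035) for deficiency and 0.062 (SE 0.035) for GH at 7 days, and by 0.041 and 0.039 at 30 days. The part of meningeal tissue, blood or platelets in the endothelial differences was not tested.

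Tm4sf1, a tetraspanin-like membrane protein of endothelial cells, had the smallest adjusted p of the vessel genes within a time point. Its difference at 30 days was 0.18 (SE 0.034, unadjusted p = 4.0e-05, adjusted p = 0.25) in GH-treated dwarfs minus HZ saline and 0.11 (SE 0.034, adjusted p = 0.60) in dw/dw saline minus HZ saline, against 0.018 (SE 0.034) for the latter at 7 days. Cd93, a glycoprotein receptor of growing vessels, was 0.15 (SE 0.059, adjusted p = 1.0) in GH minus saline at 7 days. Sox17, a transcription factor of arterial endothelium, was -0.066 (SE 0.028, adjusted p = 0.71) in dw/dw saline minus HZ saline at 7 days. Ly6e, a membrane-anchored protein, was -0.11 (SE 0.063) in GH minus saline at 7 days and 0.14 (SE 0.063) at 30 days. Between 7 and 30 days, 5 of the 25 endothelial markers passed, of which Tek, Fli1 (0.053, SE 0.015) and Plvap (0.061, SE 0.013) were higher, and Cd93 (-0.17, SE 0.034, adjusted p = 0.0025) and Tie1 were lower. That is 20% of the list against 15.7% of probes.

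Among blood-brain barrier genes 0 of 16 passed within a time point. Slco1c1, the thyroid hormone transporter of brain capillaries, was 0.16 (SE 0.071, adjusted p = 1.0) in GH minus saline at 7 days. Slc38a5, an amino acid transporter, was -0.075 (SE 0.030, adjusted p = 0.68) in dw/dw saline minus HZ saline at 7 days, and Lsr, a receptor at three-cell junctions, was -0.059 (SE 0.019, adjusted p = 0.60) at 30 days. Among 10 markers of pericytes and vascular smooth muscle, Cspg4, the NG2 proteoglycan, was 0.22 (SE 0.099, adjusted p = 0.68) in dw/dw saline minus HZ saline at 30 days. Of 19 genes of the hypoxia response, which includes Vegfa among its known targets, 0 passed within a time point. Hif1a, the oxygen-regulated transcription factor subunit, was -0.25 (SE 0.067, adjusted p = 0.79) in GH-treated dwarfs minus HZ saline at 7 days and 0.15 (SE 0.067, adjusted p = 0.68) in dw/dw saline minus HZ saline at 30 days, and Pgk1, a glycolytic enzyme, was -0.096 (SE 0.031, adjusted p = 0.57) in dw/dw saline minus HZ saline at 7 days.

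The members were also set against each other by how far each array lay from the mean of its own group, which removes the group differences. Over the 24 arrays the deviations of Cldn5 and Vwf had a Pearson r of 0.78 and a Spearman rho of 0.79. Within the 12 arrays of each slide r was 0.82 on the 7-day slide and 0.74 on the 30-day slide, it was 0.76 without the 2 arrays farthest out in Cldn5, and it was 0.78 in the authors' processed values. Among 7982 other tested genes Vwf held rank 3 by closeness to Cldn5, and Cldn5 held rank 2 by closeness to Vwf. These points share the RNA preparation, the array and its normalization, so r is a description of these arrays. All other pairs of members were weaker, from 0.058 for Vegfa with Tek to 0.34 for Vegfa with Cldn5, and the latter was 0.13 without the 2 farthest arrays. Vegfa with Vwf was 0.32 over all arrays, 0.57 on the 7-day slide and -0.11 on the 30-day slide. The r with the median raw signal of the array was 0.39 for Cldn5, 0.52 for Vwf, 0.47 for Vegfa and 0.46 for Tek.

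**Figure D4:**
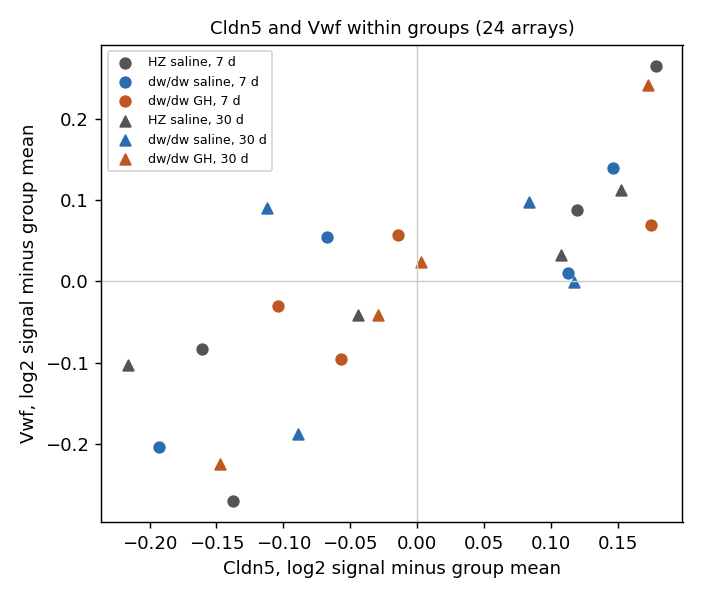
Deviation of Vwf (y axis) against deviation of Cldn5 (x axis), each as log2 signal minus the mean of the array's group, for 24 arrays (colours: groups, circles: 7 days, triangles: 30 days). Arrays above their group mean in Cldn5 were mostly above it in Vwf on both slides, with a Pearson r of 0.78.

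The genes whose deviations lay nearest to those of each member were named by the highest r over the 24 arrays. For Cldn5 they were Fcgrt (0.80), which encodes the receptor that recycles immunoglobulin G, Ecm1 (0.79), an extracellular matrix protein, and Vwf. For Vwf they were the complement gene C4b (0.81), Cldn5 and the actin crosslinker Flna (0.78). For Vegfa they were the kinase Limk2 (0.77), the semaphorin receptor Plxnb2 (0.75) and the kinase Map3k12 (0.75), of which the last had an r of 0.91 on the 7-day slide and 0.49 on the 30-day slide. For Tek they were Ccpg1 (0.81), the chaperone Dnajc10 (0.76) and Nkap (0.75). The nearest genes of Vegfa and Tek thus held no vessel marker of the lists, and those values rest on deviations within a pooled SD of 0.028 and 0.017.

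The 250 bases upstream of the RefSeq start of Cldn5 and of its 2 nearest genes, Fcgrt and Ecm1, are printed because these genes moved with Cldn5 from array to array. The windows lie on the minus strand of GRCr8 at chr11:95718599-95718848 for Cldn5, chr1:104720027-104720276 for Fcgrt and chr2:185981607-185981856 for Ecm1, and are written 5′ to 3′ along the gene. Capitals mark GGAA or its reverse complement TTCC, the core of the sites of ETS factors such as Erg and Fli1, searched on both strands.

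Cldn5: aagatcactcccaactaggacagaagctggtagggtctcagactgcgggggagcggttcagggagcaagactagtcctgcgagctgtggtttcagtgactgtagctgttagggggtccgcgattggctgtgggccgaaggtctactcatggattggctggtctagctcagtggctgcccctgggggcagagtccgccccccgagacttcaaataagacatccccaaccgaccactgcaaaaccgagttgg

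Fcgrt: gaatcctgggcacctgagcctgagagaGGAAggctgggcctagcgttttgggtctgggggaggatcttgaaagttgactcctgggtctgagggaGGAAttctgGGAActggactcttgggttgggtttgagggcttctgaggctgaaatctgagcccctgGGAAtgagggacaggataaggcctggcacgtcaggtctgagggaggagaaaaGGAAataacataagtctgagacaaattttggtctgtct

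Ecm1: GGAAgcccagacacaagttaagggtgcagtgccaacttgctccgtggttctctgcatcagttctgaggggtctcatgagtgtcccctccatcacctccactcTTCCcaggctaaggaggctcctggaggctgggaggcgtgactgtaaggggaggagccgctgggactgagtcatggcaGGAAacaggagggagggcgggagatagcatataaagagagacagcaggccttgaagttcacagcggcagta

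The Cldn5 window held 0 matches to GGAA, the Fcgrt window 5 and the Ecm1 window 3. Of 33465 rat promoter windows of the same length, 93.2% held at least 1 match and the median was 3, so a match is the rule and the 0 of Cldn5 says only that these letters are not in this window. ACGTG, the core of the hypoxia response element, was searched in the same way, can overlap GGAA by 1 base, and stood in 16.6% of all windows. It was found once in the Fcgrt window and 0 times in those of Cldn5 and Ecm1. Of the 7 members, 4 had a window, and besides Cldn5 these were Flt1 (3 GGAA), Kdr (4 GGAA) and Vegfa, whose 2 listed starts held 4 and 2, each with 0 matches to ACGTG. Tek, Pecam1 and Vwf are named only.

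The vessel lists were set against the same deviations. Of the 22 endothelial markers other than the members, 20 had an r above 0 with Cldn5 (median 0.36) and 20 with Vwf (median 0.30). Over all genes the medians were 0.015 and 0.0012, and 52.2% and 50.1% lay above 0. The highest was Adgrl4, an adhesion receptor of endothelial cells, at 0.78 with Cldn5 and 0.77 with Vwf, followed for Cldn5 by Tm4sf1 (0.68) and Rasip1 (0.66), an effector of endothelial Ras signalling. The r of pericyte and smooth muscle markers had medians of 0.30 and 0.32 over 10 genes, with Vtn, a matrix protein of brain pericytes, at 0.70 and 0.74. Meningeal markers stood higher still, with 12 of 12 above 0 and medians of 0.54 for Cldn5 and 0.64 for Vwf, and Aebp1, a collagen-binding protein of fibroblasts, reached 0.78 with Cldn5. Red blood cell markers had medians of 0.41 and 0.37 over 4 genes, and the platelet marker Pf4 had an r of 0.64 with Cldn5 and 0.51 with Vwf. Choroid plexus markers had medians of 0.22 and 0.24 over 3 genes. Blood-brain barrier genes, a list that also holds Cldn5, had medians of only 0.078 and 0.16 over 15 genes, with 10 and 11 above 0. Among them Ocln was at -0.29 with Cldn5. Medians were 0.11 and 0.027 for signal transduction genes, and 0.074 and -0.037 for the hypoxia response. Microglia (-0.036 and 0.047) and hippocampal neurons (-0.021 and 0.066) lay near 0. The part of meningeal tissue, blood and platelets in the joint movement of Cldn5 and Vwf was not tested.

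**Figure D5:**
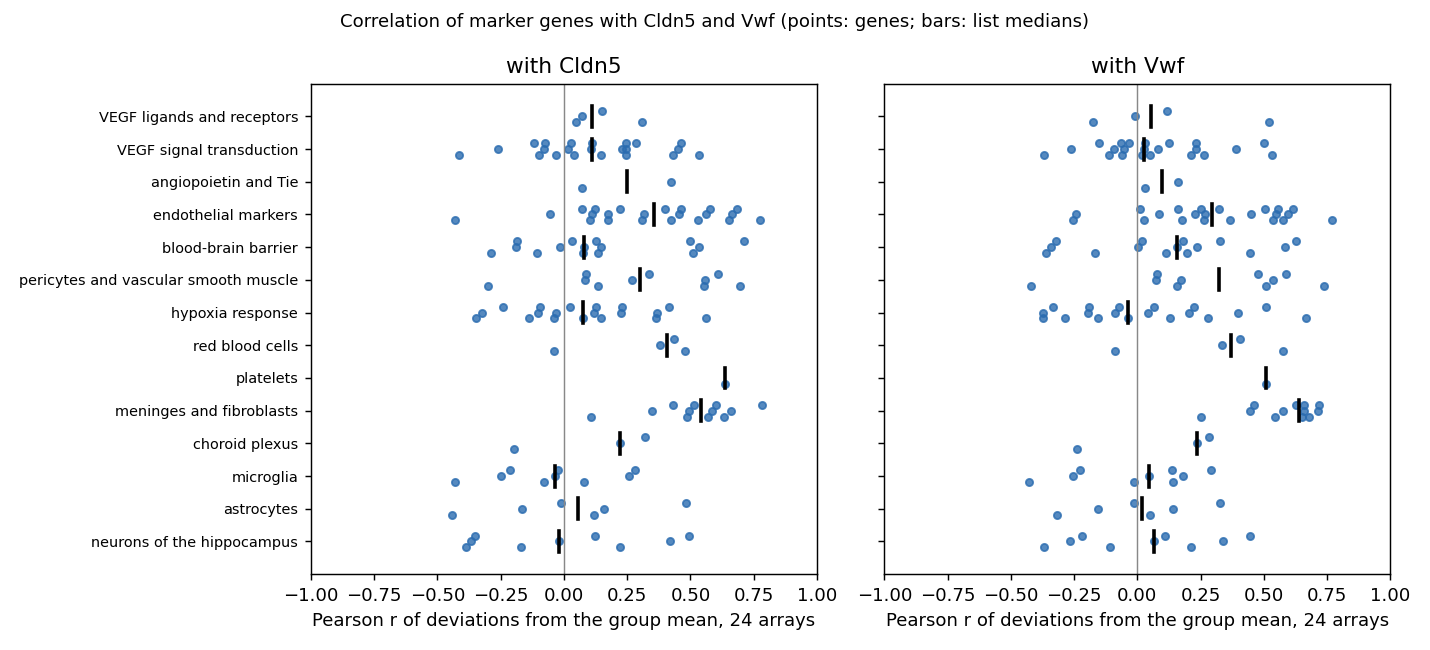
Pearson r over 24 arrays (x axis) between the deviations of each marker gene (points) and those of Cldn5 or Vwf, by marker list (y axis), with list medians as bars. Endothelial, pericyte and meningeal markers lie mostly above 0, with meningeal medians of 0.54 and 0.64, while microglia and neurons scatter around 0. Blood-brain barrier genes have lower medians, 0.078 and 0.16.

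The r of Vegfa with the 22 endothelial markers had a median of 0.051 and 13 were above 0, and its medians with the hypoxia response (0.098 over 19 genes, 11 above 0) and with signal transduction genes (0.095 over 22 genes, 15 above 0) were near those. Its medians were higher with markers of pericytes and vascular smooth muscle (0.22, 8 of 10 above 0), of meninges (0.18, 11 of 12 above 0) and of hippocampal neurons (0.16, 6 of 9 above 0). Over all genes the median r of Vegfa was 0.023, with 53.2% above 0. Tek had 19 of 22 endothelial markers above 0 with a median of 0.28, led by the transcription factor Sox18 (0.59), while its meningeal median was -0.081 with 4 of 12 above 0. Over all genes the median r of Tek was -0.0055, with 49.4% above 0. These values for Tek come from a signal at the edge of detection.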

How the data were processed

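The authors deposited raw scanner values of 22226 probes on 24 arrays, per the file headers 1 intensity (mean bead signal, linear) and 1 detection p-value per probe and array. The submitters' processing notes name GenomeStudio 2010.2. The authors' series matrix holds intensity values of the same arrays whose normalization is not given in the sources used here; their lowest value was -13.04, column medians ran from 9.75 to 9.86 on the 7-day slide and from 8.57 to 8.67 on the 30-day slide, the scale looks linear and background-subtracted without centring, and they served as an alternative after values under 1 were set to 1 and put on a log2 scale. Scanner signals were processed with neqc (limma 3.58.1, R 4.3.3, offset 16), from detection p-values. Probes detected on at least 4 arrays (11487, 51.7%) were fitted with 6 group means by lmFit and eBayes (18 residual degrees of freedom), two-sided. Array counts, not read depth, limit the precision. Of all probes, 13192 carried 1 gene symbol, 0 several, and 9034 were unnamed here. Groups came from the source labels, which name rats by replicate. The p-values rest on the spread between rats within groups, pooled over the 6 groups of 4 and adjusted by eBayes.

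The members and gene lists were chosen with earlier results of these data known. Beyond the members, the text names, per vessel list and comparison, from the gene with a positive and the gene with a negative difference that had the smallest unadjusted p, and for each member the 3 genes with the highest r. Lists whose group differences within a time point are not described (choroid plexus, astrocytes, microglia, hippocampal neurons) had 0 genes passing there. Genes of the 30 against 7 day comparison and list genes given by their r were named after their values were seen. Alternatives were median scaling, an offset of 50, no filter, a detection p-value under 0.01 on all arrays, the authors' values, each slide alone, the replicate block and leaving out each array. The fit was tested on simulated data.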

Additional observations from a re-analysis of the deposited data

Results flagged for a closer look

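In 4 of the 30 sets of 4 rats checked (5 genes in 6 groups), one array stood far from the other 3, a gap that chance alone gives in about 1 of 20 such sets. All lay at or below the edge of detection. Flt1 read 6.07 in dw/dw saline replicate 1 at 7 days, where the other 3 lay between 6.04 and 6.05. Tek read 6.06 in dw/dw saline replicate 2 at 7 days (others 6.10), 6.14 in HZ saline replicate 1 at 30 days (others 6.11) and 6.12 in dw/dw saline replicate 4 at 30 days (others 6.10). Without each of these 3 Tek arrays in turn, the difference between 30 and 7 days stayed positive and its adjusted p lay above 0.05. The cause was not tested.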

How the results depend on the processing

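The 44 member differences under the alternative settings gave 1333 pairs of a difference and a setting. Of these pairs 1270 kept their direction and their side of the threshold, 41 changed sign, 19 kept their direction and lost the call, and 3 gained one. All 19 lost calls were those of Tek between 30 and 7 days, the only member difference called. With median scaling, signs turned for Cldn5 in dw/dw saline minus HZ saline at 7 days (0.0025), Vwf in dw/dw GH minus HZ saline at 7 days (0.090), Cldn5 in dw/dw GH minus HZ saline at 30 days (-0.034), and the deficiency interactions of Vegfa (-0.0021) and Cldn5 (-0.047). Leaving out one array at a time, sign changes left these ranges. In dw/dw saline minus HZ saline, Vegfa -0.0071 to 0.027 and Tek -0.014 to 0.0048 at 7 days, and Cldn5 -0.084 to 0.039 at 30 days. In dw/dw GH minus HZ saline, Tek -0.0012 to 0.016, Cldn5 -0.022 to 0.096 and Vwf -0.11 to 0.072 at 7 days, and Vegfa -0.010 to 0.0048, Cldn5 -0.046 to 0.077 and Vwf -0.041 to 0.11 at 30 days. In dw/dw GH minus dw/dw saline, Cldn5 -0.020 to 0.087 and Vwf -0.12 to 0.034 at 30 days, and Vegfa -0.0074 to 0.0063 over both durations. In the deficiency interaction, Vegfa -0.011 to 0.024 and Tek -0.016 to 0.0022. None of these differences passed the test in any fit.

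Probes passing, 0 in each, became 0 to 1 without one array in the 3 comparisons at 7 days, 0 to 5 in dw/dw saline minus HZ saline at 30 days, 0 to 43 in deficiency over both durations (43 without dw/dw saline replicate 1 at 30 days) and 0 to 2 in GH over both durations. The stricter filter gave 14 in deficiency over both durations, and the authors' values gave 1 in dw/dw saline minus HZ saline at 30 days. Between 30 and 7 days the 1808 probes became 351 with median scaling (45% higher), 5224 with the authors' values (4.9% higher) and 1560 to 1871 without one array. The members passing, 1 of 4, became 0 with median scaling, 0 of 3 under the stricter filter, which left Tek untested, 3 with the authors' values, and 0 to 1 without one array. The cause was not tested.

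No label says that replicate numbers mark a shared day or batch. Of 24 same-numbered pairs 12 had a correlation of deviations above 0.1 (range -0.28 to 0.49), and the own number gave the highest correlation in 10 of 24. With 4 candidates per pair, chance alone puts the own number first in about 1 of 4, and the pairs share arrays. All 4 pairs of HZ saline and dw/dw GH at 7 days lay above 0.1 (0.15 to 0.36) with the own number highest, a hint from the data, and there 0 probes passed with the block; the 3 pairs of replicate 1 at 30 days had 0.42 to 0.49. With the replicate number as a block, 1 probe passed in dw/dw saline minus HZ saline at 7 days, 10 in deficiency over both durations and 1888 between 30 and 7 days, where 0 members passed. For Vegfa and Tek, signal near background limits what the arrays can show.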
